A study of Homo sapiens with 16 samples.

Results

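Jurkat, an established human T-cell acute lymphoblastic leukaemia (T-ALL) line long used to study signalling from the T cell receptor, was compared in the vehicle DMSO with the T-ALL lines CEM, CUTL1 and DND41. The members were the 2 Jurkat DMSO arrays, of 8 DMSO arrays and 16 arrays in all, and the rule asked which genes lay outside the range of the other 3 lines when each line counted equally. The series measured RNA on Affymetrix Human Genome U133 Plus 2.0 arrays, with 2 arrays for each line in DMSO and 2 with 1 uM PD-0332991, an inhibitor of the cyclin D kinases CDK4 and CDK6 also known as palbociclib. Both treatments lasted 15 h in RPMI with fetal calf serum, and all lines received DMSO or drug in the same way. Each line is a single cell line, so a difference is one between these lines as grown here, and the labels do not say whether replicates came from separate cultures. The p-values then cover no more than array-to-array spread, and that spread may be technical.

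T-ALL arises from immature T cells of the thymus, and many cases are sorted by the transcription factor they switch on aberrantly: TAL1, TLX1, TLX3, or members of the LMO and NKX2 families. TAL1 is a basic helix-loop-helix factor of blood stem cells and red cell precursors that is normally silenced as T cells develop. It binds DNA at E-boxes with partners such as TCF3, TCF12, LMO proteins, GATA3 and RUNX1, and Jurkat is a standard model of TAL1-driven disease.

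Values were deposited as linear intensity values and are given here as levels on the log2 scale, with differences between levels also on that scale. The level of 4.88, the median of all deposited values, was taken as dim, and genes at or below it have a level that cannot be told from background here. One probe set stood for each gene, and 13559 genes with at least 1 line above the dim level in DMSO were tested, of 19775 measured. The DMSO array medians lay between 28.5 and 29.9 on the linear scale, with 29.4 and 28.5 in Jurkat. Replicate arrays correlated at 0.9949 to 0.9976 across genes, and the Jurkat pair was the lowest, with a median absolute difference between its arrays of 0.128 against 0.0831 for the tightest line. The number of arrays limits the precision.

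Jurkat differed from the mean of the other lines in 6372 genes, 47% of those tested, by limma at a Benjamini-Hochberg adjusted p under 0.05. Of these, 3650 were higher and 2722 lower. A gene was called outside the range where it passed that test and both Jurkat arrays lay above the highest, or both below the lowest, of the 6 other arrays. That held for 2368 genes on the higher side (17.5%) and 1628 on the lower side (12%). A distance of at least 1 from the nearest line mean, which is 2-fold, left 264 genes higher (1.95%) and 237 lower (1.75%). All 501 of these were also called against each of the 3 lines separately. The distance they were chosen by, on the same arrays, makes that likely, so it is no further support. Just inside that distance were ATP8A2 at 1.0005 and SOCS5 at -1.0002, and just outside it were CRACD at 0.9976 and ARHGAP5-AS1 at -0.9968. The same rule with another line in the place of Jurkat gave 360 genes for CEM (2.66%), 426 for CUTL1 (3.14%) and 386 for DND41 (2.85%), against 501 for Jurkat (3.69%). These 4 counts share their arrays and were not tested against each other.

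**Figure D1:**
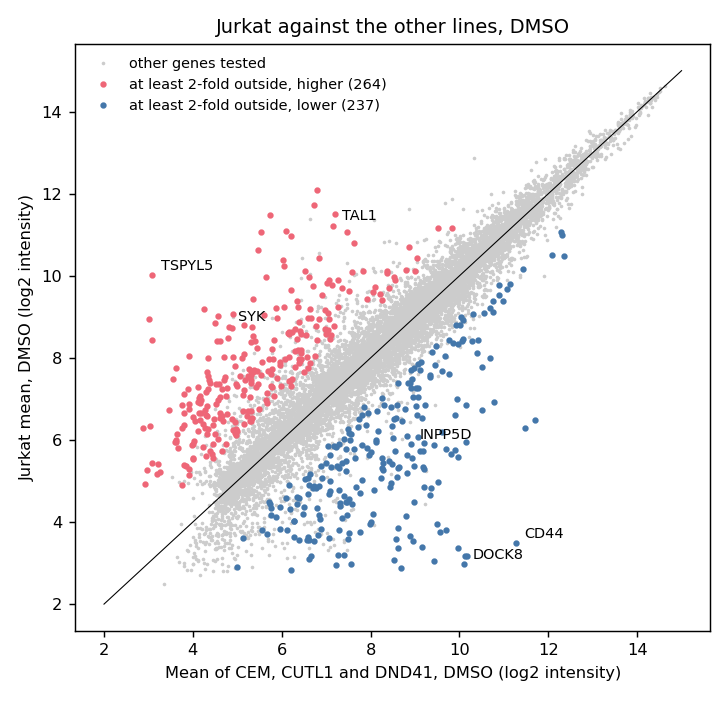
Each point is 1 of the 13559 genes tested, with its mean level over CEM, CUTL1 and DND41 in DMSO on the x axis and its Jurkat mean in DMSO on the y axis, both as log2 intensity. Coloured points are the 264 genes at least 2-fold above and the 237 at least 2-fold below the range of the other lines, and the black line marks equal levels.

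On the lower side 25 genes lay more than 4 below the nearest line mean, and on the higher side 8 lay more than 4 above it. Where 1 group is dim, such a distance is limited by the background, so these counts are not compared. In 79 of the 237 lower genes (33.3%) both Jurkat arrays were dim, so these genes were near or at background in Jurkat and readily measured elsewhere. In 66 of the 264 higher genes (25%) all 6 other arrays were dim. A further limit of those counts is the filter, since 72 of the higher genes were tested only because Jurkat was above the dim level. Such genes could not come out lower, which also holds for members of the lists below that were dim in every other line.

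CD44, the hyaluronan receptor and adhesion molecule of activated and progenitor T cells, stood farthest below the range. Its level was 3.42 and 3.55 in Jurkat, 11.25 and 11.28 in CEM, 11.64 and 11.53 in CUTL1 and 10.95 and 10.93 in DND41. Jurkat was dim on both arrays while every other array was among bright levels, and the groups did not come near each other. The difference from the mean of the other lines was -7.78 (SE 0.07), with an adjusted p of 1.95e-09 by limma, and all 7 CD44 probe sets above the dim level placed Jurkat below the range. The 250 bases before the first CD44 start listed by RefSeq (chr11:35138921-35139170 on the plus strand, GRCh38.p14) are shown because CD44 had the largest distance of all genes. Capitals mark CG dinucleotides, of which there are 15, against a median of 20 over the 10892 tested genes with a promoter in the table.
CD44: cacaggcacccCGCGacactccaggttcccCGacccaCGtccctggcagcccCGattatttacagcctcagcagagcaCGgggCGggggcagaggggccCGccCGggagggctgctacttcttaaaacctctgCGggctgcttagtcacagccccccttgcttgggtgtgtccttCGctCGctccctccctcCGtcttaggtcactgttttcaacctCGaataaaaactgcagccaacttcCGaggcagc

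The other leading lower genes have varied functions. DOCK8, a guanine nucleotide exchange factor for CDC42 needed for lymphocyte migration, had levels of 2.98 and 2.97 in Jurkat, 9.44 and 9.45 in CEM, 11.29 and 11.09 in CUTL1 and 9.73 and 9.63 in DND41. All 4 of its probe sets above the dim level agreed on the side, and the difference was -7.13 (SE 0.07) with an adjusted p of 2.12e-09 by limma. DYNLT3, a light chain of the dynein motor, was at 3.37 and 2.74 in Jurkat and 9.36 to 9.48 elsewhere. S100A11, a calcium-binding protein, was at 4.37 and 3.13 in Jurkat, where the arrays were more than 1 apart, and 8.95 to 10.31 elsewhere. RNF135, a ubiquitin ligase that aids RNA sensing by RIG-I, was at 3.31 and 3.42 in Jurkat and 8.40 to 8.95 elsewhere. In each of these genes both Jurkat arrays were dim and no other array was.

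GPX7, an oxidoreductase of the endoplasmic reticulum, had levels of 3.39 and 3.35 in Jurkat, 10.23 and 10.32 in CEM, 9.57 and 9.50 in CUTL1 and 10.06 and 10.11 in DND41. Its difference was -6.59 (SE 0.06), with an adjusted p of 2e-09 by limma. KLHL9, an adaptor of a CUL3 ubiquitin ligase used in mitosis, was at 3.91 and 3.70 in Jurkat and 9.24 to 10.16 elsewhere. DEPDC1, a gene expressed in dividing cells, was at 3.998 and 3.89 and 9.31 to 9.72, with 4 of 4 probe sets on the same side. POGLUT3, which adds glucose to EGF-like repeats, was at 3.64 and 3.42 against 8.67 to 9.34. PBDC1 (3.27 and 3.09 against 9.79 to 10.47) and ARMCX5 (3.05 and 2.68 against 8.64 to 8.78) followed the same pattern. The remaining leading genes, ZNF738, ZNF140, ZNF585A and ZNF544, belong to the zinc finger family described further on.

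Among the genes far above the range, most of the leading ones were near background in at least 1 other line. TSPYL5, a member of the TSPY and NAP1 protein family, was at 10.10 and 9.94 in Jurkat, 3.16 and 3.14 in CEM, 3.19 and 3.06 in CUTL1 and 3.07 and 2.85 in DND41. All 6 other arrays were dim, and the difference was 6.94 (SE 0.09), with an adjusted p of 4.31e-09 by limma. FAM110C, a centrosome-associated protein, was at 8.94 and 8.98 in Jurkat against 2.85 to 3.19. PDGFC, a growth factor of the PDGF family, was at 8.31 and 8.54 against 2.81 to 3.47. PRAME, a tumour antigen normally restricted to testis, was at 9.14 and 9.26 against 3.97 to 4.60. These 4 genes were dim on all arrays of the other lines.

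Developmental transcription factors were among the same leading genes. SIX6, a homeobox factor of the eye and pituitary, had levels of 11.54 and 11.43 in Jurkat, 6.82 and 6.87 in CEM, 4.37 and 4.73 in CUTL1 and 5.91 and 5.69 in DND41. CEM and DND41 were above the dim level too, so Jurkat exceeded the nearest line by 4.64, less than its difference from the mean of 5.76 (SE 0.11), with an adjusted p of 2.08e-08 by limma. TFAP2C, a factor of the trophoblast and germ line, was at 7.66 and 8.45 in Jurkat and 3.74 to 4.20 elsewhere. PDLIM1, a cytoskeletal adaptor, was at 10.98 and 11.15 against 4.61 to 6.36. LATS2, a kinase of the Hippo pathway, was at 7.29 and 7.67 against 3.40 to 3.69, and DDX25, a testis RNA helicase, at 7.58 and 7.94 against 3.46 to 3.82.

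Signalling genes made up the rest of the leading higher set. KCNK1 encodes a potassium channel and was at 10.74 and 10.49 against 4.34 to 7.11. GNG4, a G protein gamma subunit, was at 8.40 and 8.43 against 3.94 to 5.09. PMEPA1, a membrane protein that dampens TGF-beta signalling, was at 10.96 and 10.997 against 3.97 to 7.65. ARHGEF12, which activates RHOA, was at 9.08 and 9.78 against 3.84 to 6.12, and the phosphatase PPM1H was at 8.62 and 8.86 against 3.85 to 5.45. Each Jurkat array was above every other array for these 5 genes, and the distance to the nearest line mean was 3.32 to 3.69.

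**Figure D2:**
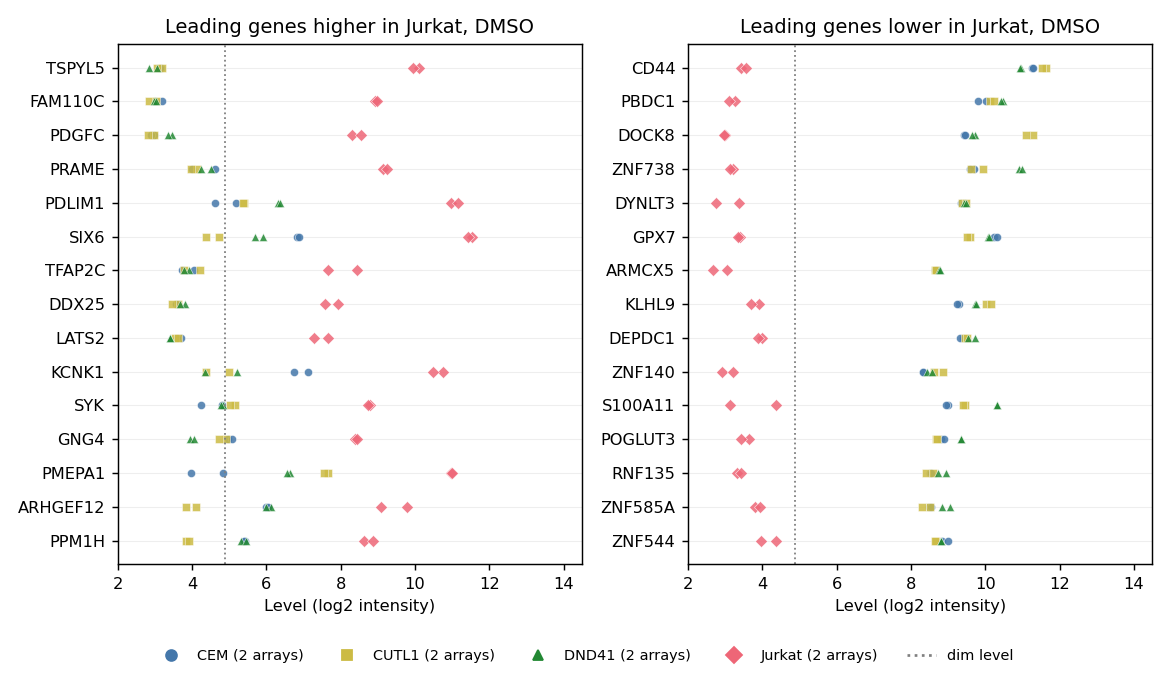
Levels (log2 intensity) on each of the 8 DMSO arrays of the 15 genes farthest above (left) and the 15 farthest below (right) the nearest other line, with 2 points for each line and a dotted line at the dim level of 4.88. In the right panel all Jurkat points lie left of the dotted line and all other points right of it.

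TAL1 itself was higher in Jurkat than in any other line. Its level was 11.23 and 11.22 in Jurkat, 8.85 and 8.93 in CEM, 4.17 and 4.42 in CUTL1 and 8.38 and 8.23 in DND41. The order of the lines was Jurkat, CEM, DND41 and CUTL1, no arrays of neighbouring lines overlapped, and both CUTL1 arrays were dim. Jurkat differed from the mean of the others by 4.06 (SE 0.09), with an adjusted p of 3.6e-08 by limma, and from CEM, the nearest line, by 2.34. All 3 TAL1 probe sets above the dim level gave the same side. By Pearson correlation over the 8 DMSO arrays, the tested genes with the pattern most like TAL1 were IQGAP2 (0.9973), NOVA1 (0.9939), CRYZ (0.9936), TLCD3A (0.9933) and CFAP36 (0.9928). With 4 lines of 2 arrays such values describe the order of the lines only.

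Of 13 T-ALL oncogenic factors tested, 3 were above the range (23.1%, against 17.5% of all genes) and 0 below it (against 12%). Their median difference was -0.0578, against 0.0389 over all genes. Besides TAL1 the factors above the range were MYC and NKX2-1. MYC, a driver of growth, was at 12.03 and 11.79 in Jurkat, 11.29 and 11.37 in CEM, 10.99 and 10.81 in CUTL1 and 11.50 and 11.61 in DND41, a difference of 0.65 (SE 0.09) with an adjusted p of 0.000695 by limma. NKX2-1 was at 5.92 and 5.76 against 5.19 to 5.68, and its call was lost without Jurkat replicate 1, when the difference was 0.31 with an adjusted p of 0.1114 by limma, and with all its probe sets averaged (adjusted p 0.09305). TLX1, TLX3, LMO1, LMO2, LYL1 and NKX2-5, which mark other T-ALL groups, were inside the range. TLX3 was above the dim level in DND41 alone (6.66 and 7.06) and LMO1 was highest there (9.11 and 9.26), whereas NKX2-5 was highest in CEM (10.76 and 10.68). LYL1 was at 6.91 and 6.28 in Jurkat, 8.02 and 8.03 in CEM, 6.21 and 6.28 in CUTL1 and 9.12 on both arrays in DND41, and LMO2 at 6.09 and 5.81 in Jurkat, 7.87 and 8.16 in CEM, 5.78 and 5.71 in CUTL1 and 5.09 and 4.49 in DND41, with TLX1 near the dim level in every line.

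Partners of TAL1 differed little. Of 9 partners tested, TCF3 and CBFB were above the range (22.2%, against 17.5% of all genes). None was below it (against 12%), and the median difference was 0.0616. TCF3, the E protein that pairs with TAL1, was at 11.27 and 11.40 in Jurkat, 10.34 on both arrays in CEM, 10.25 and 10.33 in CUTL1 and 10.83 and 10.78 in DND41, a difference of 0.86 (SE 0.07). That result depended on the probe set, since only 5 of 14 TCF3 probe sets placed Jurkat above the range and without the _x_at and _s_at probe sets the difference was -0.29. CBFB, the shared subunit of RUNX factors, differed by 0.22 (SE 0.07), and its call was lost with all its probe sets averaged, with no filter on dim genes, or in 5 of the 8 fits that left out 1 array. GATA3 was at 11.20 and 11.16 in Jurkat, 11.32 and 11.37 in CEM, 11.59 and 11.55 in CUTL1 and 10.88 and 10.91 in DND41, inside the range. MYB was at 12.26 and 12.17 in Jurkat, 12.93 and 12.70 in CEM, 11.80 and 11.87 in CUTL1 and 12.14 and 12.06 in DND41, also inside it. Among 11 genes described elsewhere as raised by TAL1, 2 were above the range (18.2%, near the 17.5% of all genes) and 0 below it. In the test against the mean of the other lines, 7 of the 11 were called higher, as were 3650 of all 13559 genes. STAT5A alone was called lower, at -1.29 (SE 0.07), as were 2722 of all genes. ARID5B, a chromatin regulator, was at 10.06 on both arrays in Jurkat, 8.62 and 8.74 in CEM, 9.02 and 9.04 in CUTL1 and 7.44 and 7.36 in DND41. CD53, a tetraspanin of leukocytes, differed by 0.62 (SE 0.07). It lay only 0.13 above CUTL1, and 1 of its 2 probe sets above the dim level placed Jurkat above the range. The median of these 11 genes was 0.303.

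The invariant chains of the T cell receptor complex were inside the range of the other lines. CD3D, a subunit of the T cell receptor complex, was at 14.02 and 13.92 in Jurkat, 14.13 and 14.11 in CEM, 14.17 and 14.21 in CUTL1 and 13.85 and 13.87 in DND41, among the brightest genes in every line. CD3E, CD3G and CD247, the other such chains, were inside it as well, as were CD2, CD5, CD7 and CD28. CD2 was at 10.81 and 10.72 in Jurkat, 9.44 and 9.27 in CEM, 11.23 and 11.03 in CUTL1 and 8.57 and 8.56 in DND41, and CD7 at 9.12 and 9.05 in Jurkat, 8.08 and 7.96 in CEM, 7.68 and 7.92 in CUTL1 and 9.75 and 9.80 in DND41. CD4 was at 5.78 and 5.93 and CD8A at 4.54 and 4.45 in Jurkat, so the coreceptor CD8A was dim there. It was dim or near the dim level in DND41 too, and bright in CEM and CUTL1.

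In the T cell receptor list of 50 genes, 9 lay above the range and 7 below it, 18% and 14%, against 17.5% and 12% of all genes tested. SYK, a kinase of B cells and early thymocytes and the relative of ZAP70, showed the widest gap. Its level was 8.79 and 8.73 in Jurkat, 4.81 and 4.24 in CEM, 5.16 and 5.02 in CUTL1 and 4.83 and 4.79 in DND41. The other lines were at or just around the dim level while Jurkat expressed it clearly, and the difference was 3.96 (SE 0.14) with an adjusted p of 3.61e-07 by limma. The kinases LCK and ZAP70 and the adaptor LAT were above the range by smaller margins. LCK was at 12.93 and 12.96 in Jurkat, 12.72 and 12.61 in CEM, 12.84 and 12.83 in CUTL1 and 11.73 and 11.60 in DND41, only 0.11 above CUTL1. ZAP70 was at 10.02 and 9.97 in Jurkat, 9.57 and 9.46 in CEM, 9.38 and 9.37 in CUTL1 and 9.48 and 9.36 in DND41 and LAT at 11.05 and 10.99 in Jurkat, 10.79 and 10.81 in CEM, 10.55 and 10.48 in CUTL1 and 7.87 on both arrays in DND41. LAT was low in DND41 in particular, so the margin over CEM was 0.22. For ZAP70 and for LAT, 1 of 2 probe sets above the dim level placed Jurkat above the range.

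VAV2, a guanine nucleotide exchange factor, was above the range with a difference of 2.30 (SE 0.14), on 1 of its 2 probe sets above the dim level. RASGRP1, which links the receptor to RAS, differed by 0.94 (SE 0.11). FYB1, an adaptor for integrin activation, differed by 2.24 (SE 0.09), mostly through a low level in DND41, and was not called without _x_at and _s_at probe sets (0.15, adjusted p 0.3958 by limma). On the lower side ICOS, the inducible costimulator, was at 5.79 and 5.55 in Jurkat, 7.84 and 7.75 in CEM, 11.10 and 11.22 in CUTL1 and 10.44 and 10.47 in DND41. Its difference was -4.14 (SE 0.08), with an adjusted p of 2.81e-08 by limma. TRBC1, a constant segment of the receptor beta chain, differed by -0.44, TRAT1, an adaptor bound to the receptor complex, by -1.46 (SE 0.09), SOS1, a RAS activator, by -0.59 (SE 0.11), and the ubiquitin ligase CBL by -0.53 (SE 0.11). The CBL call was lost without Jurkat replicate 1 (-0.33, adjusted p 0.05123 by limma).

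Of 31 surface and stage genes tested, 5 were above the range (16.1%) and 6 below it (19.4%), against 17.5% and 12% of all genes, and 4 and 5 of these lay at least 2-fold out, against 1.95% and 1.75% of all genes. Below it were CD44, CD38, CD96, IL7R and the recombinase genes RAG1 and RAG2, with CD96 at a difference of -1.08 (SE 0.06). RAG1, which cuts DNA to assemble receptor genes, was at 4.80 and 4.86 in Jurkat, 10.40 and 10.47 in CEM, 6.10 and 6.89 in CUTL1 and 11.16 and 11.10 in DND41, and RAG2, its partner, at 4.20 and 4.93 in Jurkat, 7.30 and 6.97 in CEM, 6.84 and 7.06 in CUTL1 and 8.48 and 8.37 in DND41. Jurkat was at or near the dim level for both. Their differences were -4.53 (SE 0.18) and -2.94 (SE 0.18). CD38, an ectoenzyme of activated and immature lymphocytes, was at 7.14 and 6.71 in Jurkat, 10.21 and 10.19 in CEM, 10.34 and 10.63 in CUTL1 and 11.67 and 11.69 in DND41, a difference of -3.86 (SE 0.12) with an adjusted p of 2.29e-07 by limma. IL7R, the receptor chain for the thymic growth factor IL7, was at 5.61 and 5.95 in Jurkat, 7.26 and 7.17 in CEM, 10.07 and 10.28 in CUTL1 and 11.64 and 11.75 in DND41. DNTT, the polymerase that adds bases at receptor joints, was at 10.62 and 10.45 in Jurkat, 11.47 and 11.39 in CEM, 6.27 and 6.48 in CUTL1 and 12.36 and 12.29 in DND41, inside the range, so the genes of receptor assembly did not all share the low level.

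The members above the range were KIT, CD1A, CD1D, THY1 and TNFRSF4. CD1A, which presents lipids and marks cortical thymocytes, was at 10.34 and 10.39 in Jurkat, 9.69 and 9.55 in CEM, 8.58 and 8.61 in CUTL1 and 9.56 and 9.67 in DND41. CD1D, the ligand of NKT cells, was at 9.50 and 9.37 in Jurkat, 8.42 and 8.25 in CEM, 7.80 and 8.03 in CUTL1 and 7.41 and 7.58 in DND41. THY1 was at 8.11 and 7.92 against 5.62 to 6.95, TNFRSF4, the costimulator OX40, at 7.14 and 7.46 against 5.42 to 6.22, and KIT, the stem cell factor receptor, at 5.11 and 5.63 against 3.48 to 4.39. KIT was dim on all arrays of the other lines, so it was tested only because Jurkat was above the dim level.

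**Figure D3:**
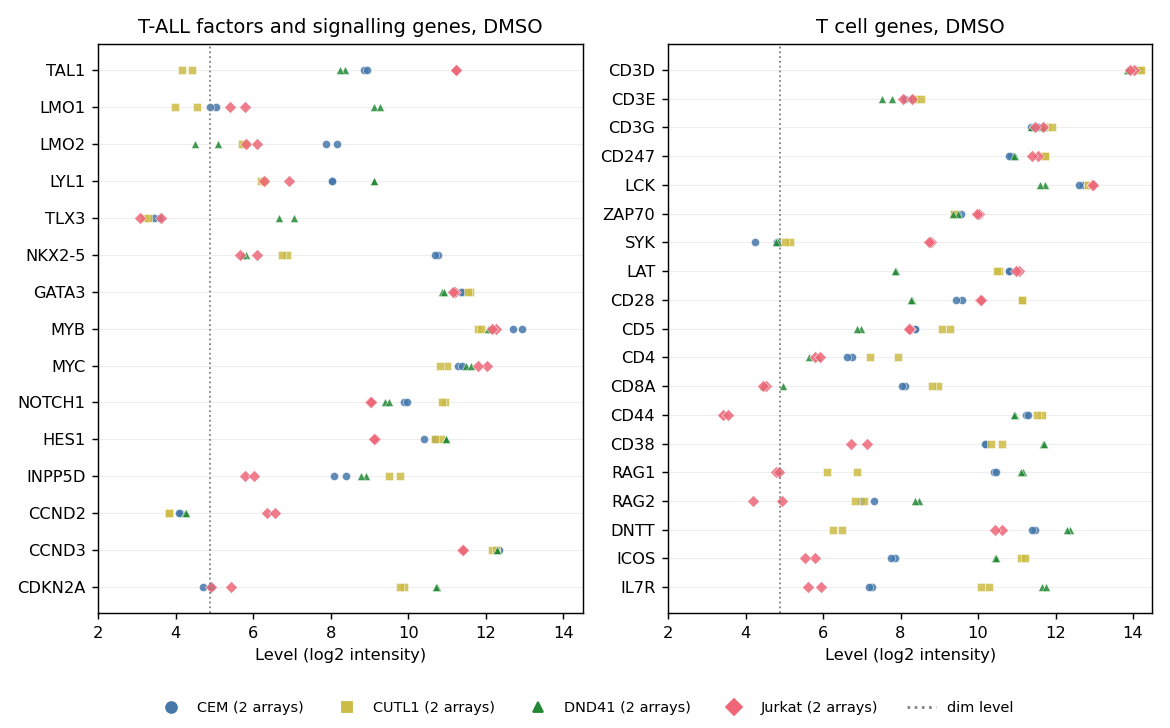
Levels (log2 intensity) on each of the 8 DMSO arrays for T-ALL factors and signalling genes (left) and T cell genes (right), 2 points a line, with the dim level of 4.88 dotted. Jurkat lies with the other lines for CD3D, CD3E, CD3G and GATA3, far above them for TAL1, SYK and CCND2, and far below them for CD44, CD38, ICOS and INPP5D.

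Of 35 lineage transcription factors tested, 5 were above the range (14.3%, against 17.5% of all genes) and 0 below it (against 12%), with a median difference of 0.38. ZBTB16, the factor PLZF of innate-like T cells, was at 8.01 on both arrays in Jurkat, 3.87 and 4.001 in CEM, 6.25 and 6.50 in CUTL1 and 3.59 and 3.93 in DND41, a difference of 3.32 (SE 0.11) with an adjusted p of 2.74e-07 by limma. EOMES, a factor of cytotoxic T cells, was at 8.62 and 8.65 in Jurkat, 5.24 and 4.68 in CEM, 6.50 and 6.64 in CUTL1 and 7.16 and 7.17 in DND41, and differed by 2.40 (SE 0.13). TBX21, its relative T-bet, stayed at the dim level in every line (4.87 and 4.93 in Jurkat) and was not called without Jurkat replicate 2 (0.30, adjusted p 0.06478 by limma).

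Of the granzyme genes, GZMA and GZMK were above the range, GZMM was inside it (8.19 and 8.14 in Jurkat, 8.35 and 8.16 in CEM), and GZMB and GZMH were dim. GZMA, a protease of cytotoxic granules, was at 10.17 and 10.29 in Jurkat, 7.92 and 8.04 in CEM, 4.78 and 5.31 in CUTL1 and 5.31 and 5.01 in DND41, a difference of 4.17 (SE 0.15) with an adjusted p of 3.83e-07 by limma. GZMK was at 6.56 and 6.40 against 3.99 to 4.44, and all other arrays were dim. Of 10 genes of natural killer and cytotoxic cells tested, of 17 measured, 3 were above the range (30%, against 17.5% of all genes), namely GZMA, GZMK and CTSW. GZMK was tested only because Jurkat was above the dim level and could not have come out lower, which raises that share. The summed linear level of the whole list of measured markers was 2460 to 2580 in Jurkat and 768 to 1470 elsewhere. GZMA carried that gap, since without it the sum was 1310 to 1330 in Jurkat and 736 to 1430 elsewhere. GNLY, TYROBP and KLRF1, effector and receptor genes of natural killer cells, were dim on all 8 arrays. Of the same list, NKG7 (7.94 and 8.03 in Jurkat, 7.58 to 8.87 elsewhere) and PRF1 (7.64 and 7.60 in Jurkat, 5.88 to 7.94 elsewhere) were expressed in every line and inside the range.

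NOTCH1, the receptor most often activated in T-ALL, was lower in Jurkat than in any other line. Its level was 9.01 and 9.04 in Jurkat, 9.89 and 9.97 in CEM, 10.94 and 10.88 in CUTL1 and 9.40 and 9.51 in DND41, a difference of -1.08 (SE 0.07) with an adjusted p of 8.01e-06 by limma. HES1, the best known NOTCH target, was at 9.13 and 9.11 in Jurkat, 10.41 and 10.68 in CEM, 10.84 and 10.69 in CUTL1 and 10.97 and 10.98 in DND41, a difference of -1.64 (SE 0.09). MAML3, a coactivator of NOTCH, was at 4.36 and 4.44 in Jurkat, 5.72 and 6.10 in CEM, 8.03 and 8.29 in CUTL1 and 7.95 and 7.84 in DND41, and differed by -2.92 (SE 0.12) on 1 of 2 probe sets. Of the 35 receptors and targets tested, 7 were below the range (20%) and 5 above it (14.3%), against 12% and 17.5% of all genes, with a median of 0.00392. The 7 include IL7R and CD44, and the 5 include HEY2 (1.94 (SE 0.12)), HES6 (1.68 (SE 0.12)) and MYC, so the targets did not go one way. HEY2 was at 5.87 and 6.07 in Jurkat against 3.57 to 4.70.

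INPP5D encodes SHIP1, a lipid phosphatase that removes a phosphate from the product of PI3-kinase, and Jurkat is known to lack the protein. Its level was 5.77 and 6.03 in Jurkat, 8.38 and 8.08 in CEM, 9.78 and 9.49 in CUTL1 and 8.90 and 8.77 in DND41. Jurkat was above the dim level and below every other array, and the difference was -3.001 (SE 0.12) with an adjusted p of 8.03e-07 by limma. The related phosphatase INPPL1 (SHIP2) was at 6.50 and 6.52 in Jurkat, 7.61 and 7.49 in CEM, 7.72 and 7.90 in CUTL1 and 7.93 and 7.82 in DND41, a difference of -1.24 (SE 0.08). PIK3CD, the catalytic subunit of lymphocytes, differed by -0.76 (SE 0.07), and IRS1, an insulin receptor adaptor, by -0.79 (SE 0.16). The regulatory subunits PIK3R1 (0.87 (SE 0.08)) and PIK3R3 (1.07 (SE 0.07)) were above the range, as were PDPK1 (0.53 (SE 0.09)) and TSC1 (0.67 (SE 0.07)). Not all probe sets above the dim level placed Jurkat there. That side was given by 1 of 3 for PIK3R1, 1 of 2 for PIK3R3 and 1 of 4 for PDPK1. In all, 8 of 38 PI3K and mTOR genes were above the range (21.1%) and 5 below it (13.2%), near the shares of all genes, with a median of 0.101.

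Jurkat expressed the D-type cyclins, which activate CDK4 and CDK6, in other proportions than the other lines. CCND2 was at 6.34 and 6.56 in Jurkat, 4.10 and 4.08 in CEM, 3.84 and 3.81 in CUTL1 and 4.23 and 4.26 in DND41, and all other arrays were dim, with a difference of 2.40 (SE 0.07) and an adjusted p of 2.17e-07 by limma. CCND3 was at 11.38 and 11.42 in Jurkat, 12.34 and 12.25 in CEM, 12.15 and 12.27 in CUTL1 and 12.29 and 12.28 in DND41, a difference of -0.86 (SE 0.07). Jurkat was highest for CCND2 and lowest for CCND3, on 1 of 2 probe sets above the dim level for the latter. CDK4, one of the kinases they bind, differed by -0.26 (SE 0.07), a call lost without Jurkat replicate 2 (-0.21, adjusted p 0.1035 by limma), and CDK6 was inside the range at 13.21 and 13.33. RB1, the retinoblastoma protein they phosphorylate, differed by 0.66 (SE 0.09). CDKN2A, which encodes the inhibitor p16, was at 5.42 and 4.91 in Jurkat, 4.91 and 4.71 in CEM, 9.89 and 9.79 in CUTL1 and 10.73 on both arrays in DND41. Jurkat and CEM were both near the dim level, so CDKN2A separated these 2 lines from CUTL1 and DND41 and not Jurkat alone.

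More of the cell cycle genes lay below the range than above it. In the cyclin D and RB network 11 of 27 were below (40.7%, against 12% of all genes) and 2 above (7.41%, against 17.5%), with a median of -0.279. In the proliferation list 11 of 22 were below (50%) and 0 above, with a median of -0.34. TK1, thymidine kinase of S phase, was at 8.46 and 8.36 in Jurkat, 9.87 and 9.66 in CEM, 9.997 and 10.05 in CUTL1 and 10.40 and 10.44 in DND41, a difference of -1.66 (SE 0.08) with an adjusted p of 1.73e-06 by limma. AURKB, a mitotic kinase, differed by -1.03 (SE 0.07), AURKA by -0.79 (SE 0.07), MYBL2 by -0.98 (SE 0.08) and MKI67 by -0.91. TFDP2, the dimer partner of E2F factors, differed by -1.39 (SE 0.07), CCNA2 by -0.69 (SE 0.08) and RBL1 by -0.79 (SE 0.15). TK1 alone of the lower genes in both lists was at least 2-fold below the nearest line, and the genes named here stayed above the dim level in Jurkat.

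MLH3, which acts in mismatch repair and meiosis, was the mismatch repair gene farthest out. Its level was 4.01 and 4.32 in Jurkat, 7.50 and 7.35 in CEM, 7.46 and 7.58 in CUTL1 and 7.38 and 7.60 in DND41, and both Jurkat arrays were dim. The difference was -3.31 (SE 0.11), with an adjusted p of 2.4e-07 by limma, on 3 of 3 probe sets. MSH6, which helps to detect mismatches, was at 10.50 and 10.44 in Jurkat, 11.73 and 11.76 in CEM, 11.02 and 10.94 in CUTL1 and 11.72 and 11.60 in DND41, a difference of -0.99 (SE 0.07). EXO1 differed by -0.36 (SE 0.07) and PCNA by -0.45 (SE 0.07). Of 9 genes tested 5 were below the range (55.6%, against 12% of all genes) and 0 above, with a median of -0.25. RFC1, also below it, differed by -0.25 (SE 0.06). PCNA is also counted in the proliferation list above, so these counts are not independent, and MLH3 alone was at least 2-fold below.

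Of 35 cell death genes, 7 were above the range (20%) and 6 below it (17.1%), near the shares of all genes (17.5% and 12%), with a median of -0.00936. BAX, which opens mitochondria, was at 8.41 and 8.47 in Jurkat, 9.69 and 9.78 in CEM, 9.55 and 9.79 in CUTL1 and 9.41 and 9.32 in DND41, a difference of -1.15 (SE 0.08) with an adjusted p of 1.82e-05 by limma. BCL2L1, which restrains it, differed by -0.72 (SE 0.08). APAF1, the scaffold of the apoptosome, differed by -0.52 (SE 0.09), and its call was lost with all probe sets averaged (-0.17, adjusted p 0.08741 by limma). FAS, the death receptor studied widely in Jurkat, was at 8.69 and 8.61 in Jurkat, 8.21 and 8.28 in CEM, 5.78 and 6.06 in CUTL1 and 6.56 and 6.79 in DND41, only 0.40 above CEM. CASP9 differed by 0.91 (SE 0.08) and BID by 0.54 (SE 0.07). TNFRSF10B, a TRAIL receptor, was at 8.59 and 8.91 in Jurkat, 4.01 and 3.21 in CEM, 8.45 and 8.51 in CUTL1 and 8.16 and 7.995 in DND41, low in CEM alone, and 1 of its 4 probe sets placed Jurkat above the range.

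IL27RA, the IL27 receptor, was at 4.63 and 4.36 in Jurkat, 8.94 and 8.79 in CEM, 8.90 and 8.99 in CUTL1 and 9.09 and 9.11 in DND41. Both Jurkat arrays were dim, and the difference was -4.47 (SE 0.09) with an adjusted p of 2.7e-08 by limma. SOCS1, a brake on JAK kinases, was at 5.97 and 6.35 against 6.86 to 9.78. Of 35 receptors and JAK-STAT genes 8 were below the range (22.9%, against 12% of all genes) and 3 above (8.57%, against 17.5%), among them IL6ST, the shared receptor gp130, at 8.29 and 8.76 against 4.52 to 7.96. Of 14 cytokines 4 were below (28.6%) and 0 above. TNF was at 4.61 and 4.57 in Jurkat, 7.15 and 7.35 in CEM, 5.88 and 6.0004 in CUTL1 and 6.0004 and 5.89 in DND41, and LTB, lymphotoxin beta, at 8.18 and 8.05 in Jurkat, 9.95 and 9.81 in CEM, 11.54 and 11.63 in CUTL1 and 9.82 and 9.68 in DND41. IL16 differed by -0.95 (SE 0.07), on 1 of 3 probe sets, and by 0.064 without _x_at and _s_at probe sets.

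Of 51 interferon-stimulated genes, 12 were above the range (23.5%) and 9 below it (17.6%), against 17.5% and 12% of all genes. IFI44 was at 6.36 and 6.85 in Jurkat, 8.90 and 8.89 in CEM, 8.35 and 8.64 in CUTL1 and 9.66 and 9.79 in DND41, and MX1, an antiviral GTPase, at 4.78 and 4.86 in Jurkat, 6.61 and 6.39 in CEM, 6.69 and 7.03 in CUTL1 and 6.74 and 6.72 in DND41. IFITM1, which blocks viral entry, was at 10.43 and 10.52 in Jurkat, 12.63 and 12.62 in CEM, 11.83 and 11.77 in CUTL1 and 12.63 and 12.61 in DND41, a difference of -1.87 (SE 0.06) with an adjusted p of 3.14e-07 by limma. Above the range, the RNA sensor RIGI differed by 1.34 (SE 0.08), XAF1 by 1.34 (SE 0.07), OAS2 by 1.22 (SE 0.10) and USP18 by 1.21 (SE 0.09). In antigen presentation 8 of 26 were above (30.8%) and 2 below (7.69%). HLA-B was at 12.62 and 12.54 in Jurkat, 11.72 and 11.66 in CEM, 11.45 and 11.73 in CUTL1 and 11.57 and 11.49 in DND41, and HLA-C was 0.71 (SE 0.06) higher, while HLA-E, the ligand of an inhibitory receptor on natural killer cells, was at 10.44 and 10.36 in Jurkat, 11.22 and 11.12 in CEM, 11.39 and 11.50 in CUTL1 and 11.06 and 11.10 in DND41. These class I genes are similar in sequence and polymorphic, so cross-hybridisation and allele effects on the probes cannot be told apart from RNA level. NLRC5, the activator of class I genes, was higher by 1.76 (SE 0.10), and the peptide-loading chaperone TAPBP differed by -0.88 (SE 0.08).

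Of 32 homing receptors, 10 were above the range (31.2%, against 17.5% of all genes) and 5 below it (15.6%, against 12%). CCR9, the receptor for thymus and gut homing, was at 5.11 and 5.62 in Jurkat, 9.22 and 9.04 in CEM, 10.89 and 11.02 in CUTL1 and 6.86 and 6.82 in DND41, a difference of -3.61 (SE 0.13) with an adjusted p of 4.44e-07 by limma. S1PR4, a sphingosine phosphate receptor, was at 6.11 and 5.98 in Jurkat, 8.94 and 8.71 in CEM, 8.51 and 8.38 in CUTL1 and 8.21 and 8.23 in DND41. ITGA6, a laminin receptor chain, differed by -1.33 (SE 0.14). ITGA4, a chain of the VLA-4 integrin, was higher by 1.29 (SE 0.07), SELPLG, the selectin ligand, by 1.02 (SE 0.07), and CD226, an activating receptor, by 2.48 (SE 0.23), with CD226 dim on all other arrays. Of 6 cancer-testis antigens tested, of 23 measured, PRAME and MAGEA4 were above the range (33.3%, against 17.5% of all genes). Both were dim on all other arrays and were tested only because Jurkat was above the dim level. They could not have come out lower, so the count says nothing about these antigens as a group. MAGEA4 was at 4.86 and 5.95 against 2.95 to 3.55, so its Jurkat arrays were more than 1 apart.

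Markers of other blood cells were in part near background and in part expressed in every line. For the counts below, 17.5% of all genes tested were above the range and 12% below it. Of 7 erythroid markers tested, 0 were outside the range. EPOR (7.45 and 7.41 in Jurkat) and TFRC (12.86 and 13.05) were clearly expressed in all 4 lines, whereas HBD, HBZ, ALAS2 and KLF1 did not pass the filter. Of 7 megakaryocyte markers 1 was outside, VWF, at 5.27 and 5.24, and its call was lost under 11 alternatives. Of 3 myeloid markers tested, of 13 measured, 1 was outside, CEBPA, at 5.43 and 5.88 against 4.35 to 4.56. CEBPA was tested only because Jurkat was above the dim level, so it could not have come out lower. CD14, LYZ, MPO and ELANE were dim on all 8 arrays. Of 8 B cell markers IGLL1, part of the pre-B receptor, was above the range at 10.03 and 9.77 in Jurkat, 8.84 and 8.69 in CEM, 4.73 and 3.99 in CUTL1 and 8.67 and 8.68 in DND41. CD79A (7.83 and 7.60 in Jurkat) and BLK (7.54 and 7.36) were expressed and inside the range, and PAX5 did not pass the filter. Of 10 stem cell markers SPINK2 and KIT were above the range and MECOM below it. KIT too was tested only because Jurkat was above the dim level. SPINK2 was at 9.18 and 9.24 in Jurkat, 8.07 and 7.90 in CEM, 4.65 and 5.01 in CUTL1 and 4.86 and 4.75 in DND41. MECOM was dim both in Jurkat (3.87 and 3.65) and in CEM (3.94 and 3.92). It thus set Jurkat and CEM apart from CUTL1 (7.33 and 7.49) and DND41 (8.94 and 8.81), and not Jurkat alone. GATA2, at 6.76 and 6.96 in Jurkat, was inside the range. Of 6 epithelial markers 0 were outside, and of 8 fibroblast and endothelial markers THY1, PECAM1 and VWF were above.

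Zinc finger genes made up a visible share of the genes at least 2-fold below the range. The human genome holds a large family of ZNF genes, many of which encode repressors with a KRAB domain that bind transposable elements, and they often lie in dense groups along a chromosome. This family was counted after its members were seen among the leading genes, so the count is a description. Of 397 ZNF genes tested, 36 (9.07%) were at least 2-fold below the range and 0 at least 2-fold above it, against 201 (1.53%) and 264 (2.01%) of 13162 other genes. Both Jurkat arrays were dim for 21 of the 36. By the same rule 3 ZNF genes were lower in CEM, 5 in CUTL1 and 1 in DND41, where 1.44%, 1.51% and 1.18% of all genes were. The median difference over all 397 was -0.0913, and 50 ZNF genes (12.6%) were above the range by any distance while 102 (25.7%) were below it.

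ZNF738 was the farthest, at 3.21 and 3.14 in Jurkat, 9.69 and 9.59 in CEM, 9.62 and 9.94 in CUTL1 and 10.90 and 10.99 in DND41, a difference of -6.95 (SE 0.10) with an adjusted p of 5.12e-09 by limma. ZNF140, a KRAB zinc finger, was at 2.92 and 3.22 in Jurkat, 8.33 and 8.32 in CEM, 8.61 and 8.85 in CUTL1 and 8.42 and 8.56 in DND41. ZNF585A was at 3.79 and 3.94 in Jurkat, 8.48 and 8.54 in CEM, 8.29 and 8.52 in CUTL1 and 8.84 and 9.06 in DND41, and its neighbour ZNF585B at 2.98 and 3.43 in Jurkat, 6.96 and 7.08 in CEM, 7.39 and 7.40 in CUTL1 and 7.45 and 7.28 in DND41. These neighbours are close copies, and probes may read both. ZNF93, which is known to repress LINE-1 elements, was at 4.74 and 4.60 in Jurkat, 9.37 and 9.51 in CEM, 9.21 and 9.14 in CUTL1 and 9.40 and 9.36 in DND41. ZNF544 was at 4.36 and 3.96 in Jurkat against 8.65 to 8.99, ZNF506 at 3.15 and 2.80 against 7.16 to 7.93, ZNF415 at 2.93 and 2.96 against 6.84 to 7.62 and ZNF432 at 3.92 and 3.53 against 7.07 to 8.20. In each of these 9 genes both Jurkat arrays were dim and every other array was not.

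**Figure D4:**
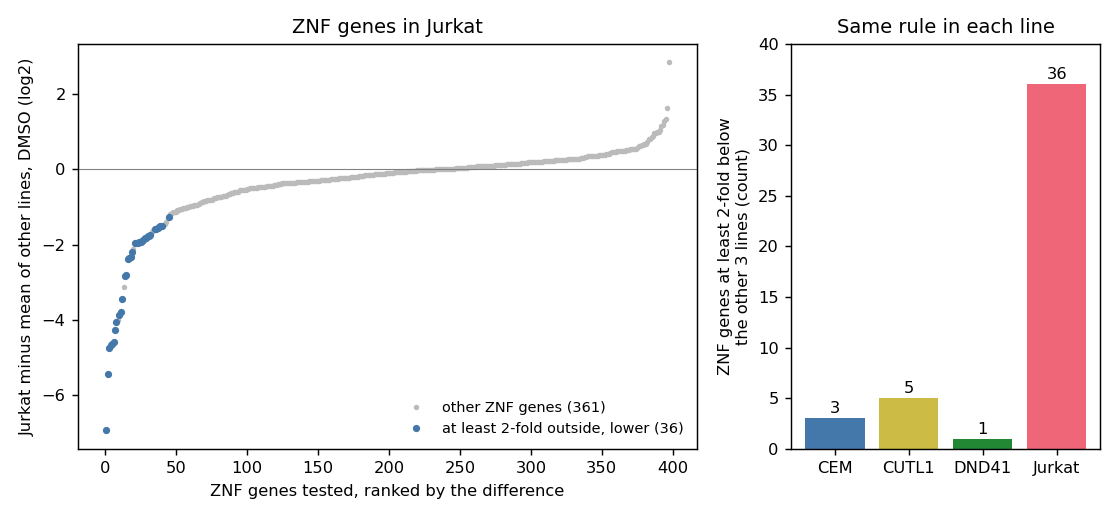
Left, the difference of Jurkat from the mean of the other lines in DMSO (log2) for 397 ZNF genes in rank order, with the 36 at least 2-fold below the range in blue. Right, the number of ZNF genes at least 2-fold below the other 3 lines when the same rule is applied to each line, 3, 5 and 1 for CEM, CUTL1 and DND41 and 36 for Jurkat.

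The 250 bases before the first start that RefSeq lists (GRCh38.p14) are shown for 3 of these genes, chosen to show higher, middle and lower CG content within the group. ZNF140 lies at chr12:133080673-133080922 on the plus strand and has 25 CG dinucleotides, ZNF585B at chr19:37210537-37210786 on the minus strand has 13, and ZNF93 at chr19:19900696-19900945 on the plus strand has 8. Each is given 5′ to 3′ on the strand of its gene, with CG in capitals.
ZNF140: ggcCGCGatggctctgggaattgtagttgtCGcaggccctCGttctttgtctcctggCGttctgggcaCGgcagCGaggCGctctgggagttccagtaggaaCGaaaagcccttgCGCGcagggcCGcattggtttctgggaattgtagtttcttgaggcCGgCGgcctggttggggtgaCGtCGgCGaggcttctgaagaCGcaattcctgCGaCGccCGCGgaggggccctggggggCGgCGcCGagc
ZNF585B: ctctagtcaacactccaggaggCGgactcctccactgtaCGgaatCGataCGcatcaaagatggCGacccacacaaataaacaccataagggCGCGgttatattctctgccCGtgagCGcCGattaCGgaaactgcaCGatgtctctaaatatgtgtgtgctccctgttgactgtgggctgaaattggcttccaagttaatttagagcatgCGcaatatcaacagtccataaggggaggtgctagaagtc
ZNF93: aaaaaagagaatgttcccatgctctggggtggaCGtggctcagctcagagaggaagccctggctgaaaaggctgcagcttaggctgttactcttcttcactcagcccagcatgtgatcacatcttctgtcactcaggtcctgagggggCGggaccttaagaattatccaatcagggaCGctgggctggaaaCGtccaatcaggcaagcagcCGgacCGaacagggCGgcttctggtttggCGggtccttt

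Over the groups, promoter CG content had a lower median among the genes at least 2-fold below the range, a difference that was not tested. A promoter was found for 195 of the 237 lower genes, with a median of 16 CG dinucleotides, and 57.4% had at least 15. For the 216 of 264 higher genes found, the median was 21 and the share 69%, against 20 and 69.1% over all tested genes found. The 29 ZNF genes found among the 36 had a median of 15, against 19 for 307 of the other 361 ZNF genes. The E-box CAGATG, searched on both strands as a motif bound by TAL1 complexes, was present in 8.33% of the higher promoters and 8.72% of the lower ones, against 8.5% of all. The GATA motif AGATAA, searched likewise, was present in 4.63% and 4.1%, against 4.78%. These are letter matches in short windows, and no methylation or binding was measured.

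Other families, also counted after their members were seen, leaned to one side. Of 27 clustered histone genes tested, 19 were below the range, 9 of them by at least 2-fold, and 0 were above it. Over all genes those shares were 12%, 1.75% and 17.5%, and the median of the 27 was -1.04. H2BC12, a copy of histone H2B, was at 7.65 and 7.92 in Jurkat, 9.75 and 9.69 in CEM, 10.44 on both arrays in CUTL1 and 11.42 and 11.35 in DND41, and H4C11 at 6.99 and 7.12 in Jurkat, 8.90 on both arrays in CEM, 9.01 and 9.35 in CUTL1 and 8.69 and 8.82 in DND41. By the same rule 1 of the 27 was at least 2-fold lower in CEM and 0 in CUTL1 and DND41. These genes are near-identical copies whose probes may read each other, and the proliferation genes given above were lower with them. Their part in this result was not tested. Of 15 HOX genes, homeobox factors of body patterning and blood stem cells, 6 were above the range, 4 by at least 2-fold, and 0 below. Over all genes 17.5% were above it, 1.95% by at least 2-fold, and 12% below. HOXB3 was at 9.29 and 9.51 in Jurkat, 6.23 and 6.16 in CEM, 6.64 and 6.70 in CUTL1 and 6.12 and 6.28 in DND41, on 1 of 2 probe sets, and HOXC10 was at 6.02 and 5.89 against 3.49 to 3.78.

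Further genes from the 2-fold set, picked after their values were seen, show well known enzymes and regulators. DUSP6, a phosphatase that turns off ERK and is induced by it, was at 6.31 and 6.66 in Jurkat, 10.87 and 10.95 in CEM, 11.15 and 11.19 in CUTL1 and 13.07 and 12.94 in DND41. AKR1C3, an aldo-keto reductase that activates some nitroaromatic prodrugs, was at 6.49 and 6.09 in Jurkat, 11.57 and 11.61 in CEM, 12.17 on both arrays in CUTL1 and 10.67 and 10.73 in DND41. CHFR, a mitotic checkpoint ubiquitin ligase, was at 4.96 and 4.75 in Jurkat, 8.43 and 8.22 in CEM, 9.66 and 9.65 in CUTL1 and 7.31 and 7.30 in DND41. ASNS, asparagine synthetase, whose level matters for the action of asparaginase, was at 10.41 and 10.38 in Jurkat, 8.36 and 8.21 in CEM, 5.57 and 5.91 in CUTL1 and 3.87 and 4.21 in DND41. ASS1, argininosuccinate synthase of arginine synthesis, was at 10.06 and 9.90 in Jurkat, 7.23 and 7.002 in CEM, 4.89 and 5.21 in CUTL1 and 4.71 and 4.80 in DND41. PRKCA, protein kinase C alpha, was at 11.40 and 11.61 in Jurkat, 4.39 and 4.31 in CEM, 7.87 and 7.99 in CUTL1 and 9.36 and 9.28 in DND41. In DUSP6, AKR1C3 and CHFR both Jurkat arrays were lowest, and in ASNS, ASS1 and PRKCA both were highest, with no overlap.

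Some of these genes lie side by side. Among 13543 tested genes placed in RefSeq order, 25 pairs of next neighbours were both at least 2-fold lower, 12 both higher, and 3 on opposite sides. The next neighbour was also lower for 10.5% of the lower genes, and also higher for 4.55% of the higher genes, against 1.75% and 1.95% of all genes. The lower pairs include RAG1 with RAG2, TNF with LTB, ZNF585A with ZNF585B, GNA15 with S1PR4, and the run ZNF506, ZNF253, ZNF93 and ZNF682. Many lower pairs hold ZNF genes, and H2BC5 with H2BC6 and H3C7 with H2BC9 are histone genes. The share of lower neighbours is therefore not independent of the ZNF and histone counts given above, where probes may read more than the gene they stand for. The higher pairs include GZMK with GZMA, FAM110C with SH3YL1, PDGFC with GLRB, HOXC10 with HOXC4, and GSTM2 with GSTM1. Copy number was not measured.

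The same genes were then read on the 8 arrays of cells given PD-0332991, which had no part in choosing them, although they are the same lines. Of the 264 higher genes, 263 (99.6%) were called outside the range on the same side, and of the 237 lower genes 231 (97.5%). In these arrays 21.3% of all genes tested were outside on the higher side and 12% on the lower. The median difference of the higher genes was 2.27 in DMSO and 2.38 with the drug, and that of the lower genes -2.21 and -2.27. CD44 differed by -8.06 with the drug, DOCK8 by -7.40, TSPYL5 by 7.37 and SYK by 3.27. The 7 genes inside the range with the drug were CHAC1, NCOA2, ATP2B1, SCLT1, SLC7A3, ZNF704 and TRIM59, and 0 were on the other side. Without the 2-fold distance, 1974 of 2368 (83.4%) and 1165 of 1628 (71.6%) stayed on their side, and 4 changed sides. In a fit of all 16 arrays the difference of Jurkat from the other lines itself changed with the drug, at an adjusted p under 0.05 by limma, for 331 genes (2.44%), 17 of them among the 162 genes named by rule.

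**Figure D5:**
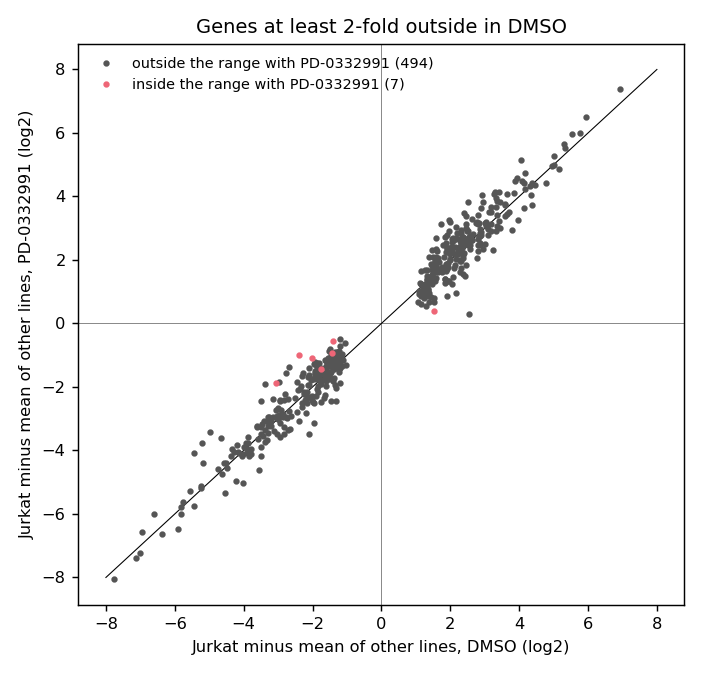
Each point is 1 of the 501 genes at least 2-fold outside the range in DMSO, with its difference from the mean of the other lines in DMSO on the x axis and with PD-0332991 on the y axis (both log2), fitted on separate arrays. The 494 dark points were outside the range on the same side with the drug and the 7 red points were inside it, and the line marks equal differences.

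Probe sets of 1 gene did not always give the same side. Of the 501 genes, 231 had more than 1 probe set above the dim level, and for 175 of these all placed Jurkat on the same side. For UNKL, HNRNPLL and CAMKK2 a probe set placed it on the other side.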

How the data were processed

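RNA of 4 T-ALL lines was measured on 16 arrays. Per the submitters' processing notes the authors used RMA (version not given in the sources used here), and the deposited values are linear intensity values (4.42 to 26097), although log2 values had been assumed, so log2 was taken with no pseudocount or scaling. The Nugen Ovation V2 amplification started from 5 ng, per the labels, and amplification can alter relative levels. Of 54675 probe sets, 41097 had 1 gene symbol, 1801 several and 11777 were unnamed here. The brightest probe set stood for each gene. Genes were tested where at least 1 line's DMSO mean reached the median of all values (29.5).

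Limma 3.58.1 in R 4.3.3 (lmFit, eBayes; 4 residual and 3.64 prior degrees of freedom) compared Jurkat with the equally weighted mean of the other lines on 8 DMSO arrays, two-sided, and separately on 8 PD-0332991 arrays. A fit of all 16 gave the difference of the differences. The Benjamini-Hochberg adjustment ran across 13559 genes. The script was tested on simulated data.

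Named genes were the 15 farthest from the nearest line on each side (passing over uncharacterised loci, antisense RNAs and pseudogenes), up to 4 per list and side, and a fixed set. Members and lists were chosen with earlier results of these data known. Alternatives covered the filter, 16 added before log2, probe sets, scaling, variance trend, arrays in the fit, range by line means, replicate block and each array left out. Promoters and gene order came from RefSeq (GRCh38.p14), which matched 41043 probe sets' gene identifiers. Some genes are not reported here. Figures used matplotlib 3.10.9.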

Additional observations from a re-analysis of the deposited data

Results flagged for a closer look

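For 17 of the 162 named genes the difference of Jurkat from the mean of the other lines changed between treatments, by limma on all 16 arrays at an adjusted p under 0.05, a call made for 331 of all genes tested (2.44%). The values below are the difference with PD-0332991 minus that in DMSO, on the log2 scale. TAL1 widened its gap by 1.10 (adjusted p 0.00511 by limma), with Jurkat at 11.23 and 11.22 in DMSO and 11.70 and 11.75 with the drug, while CEM and DND41 were lower with the drug. CCND2 widened by 1.08 (adjusted p 0.00667 by limma).

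A further 8 genes, of the cell cycle and DNA repair, lay further below the other lines with the drug than in DMSO. CDK4, also lower in Jurkat, did not pass this test (change 0.04, adjusted p 0.862 by limma). The change was -1.02 for EXO1, -0.47 for PCNA, -0.44 for MSH6, -0.69 for TK1, -0.55 for AURKA, -0.76 for AURKB, -0.65 for MYBL2 and -0.67 for BIRC5. The BIRC5 difference in DMSO was not called without _x_at and _s_at probe sets. NOTCH1 changed by -0.66 and KLHL9 by -0.59. MYC changed by -0.59, and its difference with the drug was 0.06, inside the range. The difference of GNG4, above the range in DMSO, changed by -0.87, so its gap narrowed. The difference changed by 0.49 for IFITM1, 0.59 for GPX7 and 1.36 for POGLUT3. All of these lay below the range in DMSO, so their gaps narrowed too. For GPX7, KLHL9 and POGLUT3 Jurkat was dim in both treatments. No explanation of these changes was tested.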

How the results depend on the processing

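No count moved by more than 1.5 times under the alternatives run. Genes at least 2-fold outside the range numbered 184 to 272 higher and 183 to 240 lower, fewest with all probe sets averaged, with at least 171 and 169 of the 264 and 237 shared. Called genes numbered 4669 to 6812, and the ZNF count was 24 with 16 added before log2 and at most 37. Leaving out 1 array at a time gave 247 to 279 higher, 230 to 254 lower and 5176 to 6312 called genes, a lone array being assumed to vary like the other groups. With the replicate block, the test of Jurkat against the mean of the other 3 lines in DMSO called 6390 genes instead of 6372, and the 2-fold counts were 264 and 237. Replicate numbers are not known to pair the samples. Deviations of same-numbered arrays correlated at -0.058 to 0.214 across genes, highest for CUTL1 with Jurkat. With 2 arrays a line such values cannot settle whether the samples were paired.

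Of 162 named genes, 140 kept direction and side of the threshold in every alternative run, 20 lost the call in at least 1 and MYB gained it with all probe sets averaged. The sign turned for TCF3 (-0.29, adjusted p 0.6145) and IL16 (0.064, adjusted p 0.6955) without _x_at and _s_at probe sets, and for IFNAR1 (-0.18, adjusted p 0.09737) with all probe sets averaged, by limma. Levels below 4.88 lie near background, so the size of a gap to a dim group is uncertain.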
